A study of Mus musculus with 5 samples.

Results

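The replication-dependent histone genes encode the bulk histones that are made while DNA is copied. They were taken as every protein-coding gene whose name starts with Hist1h, Hist2h, Hist3h or Hist4h, including those now named H1f, H2ac, H2bc, H3c or H4c. This gave 67 of the 21031 protein-coding genes with a RefSeq mRNA: 6 H1 genes, 18 H2A genes, 18 H2B genes, 12 H3 genes and 13 H4 genes. The Hist1 locus on chromosome 13 held 54 of them, the Hist2 locus on chromosome 3 held 10, the Hist3 locus on chromosome 11 held 2 and the Hist4 locus on chromosome 6 held 1. The older names are used throughout, since the deposited tables print them.

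The binding sites of both proteins were mapped by ChIP-seq, which sequences the DNA pulled down with a protein, in mouse embryonic stem cells grown over irradiated embryonic fibroblast feeders, with 5 libraries in all and 1 in each group. The tamoxifen groups were Ring1b in KAP1 fl/fl cells, KAP1 in KAP1 fl/fl cells and Ring1b in Ring1b fl/fl cells, where fl/fl marks a conditional allele that the drug deletes. The vehicle (ethanol) groups were KAP1 in KAP1 fl/fl cells and Ring1b in Ring1b fl/fl cells. Treatment with 4-hydroxytamoxifen or ethanol lasted 24 h, and a further 48 h of culture followed, with tamoxifen for the Ring1b fl/fl cells and without it for the KAP1 fl/fl cells. The sources used here name neither the recombinase behind the deletion nor the number of clones.

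The nucleosome core is built of H2A, H2B, H3 and H4, and H1 binds the linker DNA between cores. Replication-dependent histone genes lack introns, are transcribed mainly in S phase, and give mRNAs that end in a stem-loop instead of a poly(A) tail. Many H2A and H2B genes lie head to head and share the promoter between them. KAP1 (encoded by Trim28) is a corepressor that KRAB zinc finger proteins bring to DNA, and Ring1b (encoded by Rnf2) is the catalytic subunit of Polycomb repressive complex 1, which ubiquitinates H2A.

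The promoters that the results turn on are shown first, as the 150 bases just before the transcript start, 5′ to 3′ on the strand of the gene. They come from RefSeq on GRCm38.p6. Capitals mark the CCAAT box (CCAAT, or ATTGG on the other strand), the TATA box (TATAAA or TTTATA) and the octamer (ATTTGCAT or ATGCAAAT). Hist1h2ah and Hist1h2bk are a divergent pair, so their sequences cover much of the same DNA from opposite strands. A single KAP1 peak lies within 1 kb of both starts. It spans bases 22035058 to 22035692, with its summit in Hist1h2ah, so it reaches only part of the windows shown and not Hist1h2bk itself. Hist1h1c carried the strongest KAP1 peak of the family, Hist1h4f the strongest KAP1 peak with its summit in an H4 gene, and Hist3h2ba the strongest Ring1b peak. Hist1h1d and Hist1h4h had neither protein at their promoters. Each line gives the gene, its window on GRCm38.p6 and its strand.
Hist1h2ah, chr13:22035644-22035793, minus strand: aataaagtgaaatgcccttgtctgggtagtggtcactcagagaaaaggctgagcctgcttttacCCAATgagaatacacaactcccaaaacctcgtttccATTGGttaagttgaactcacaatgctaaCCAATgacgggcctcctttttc
Hist1h2bk, chr13:22035671-22035820, plus strand: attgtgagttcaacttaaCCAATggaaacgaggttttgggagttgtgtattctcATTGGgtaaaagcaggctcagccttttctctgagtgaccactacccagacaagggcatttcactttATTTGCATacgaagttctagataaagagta
Hist1h1c, chr13:23738657-23738806, plus strand: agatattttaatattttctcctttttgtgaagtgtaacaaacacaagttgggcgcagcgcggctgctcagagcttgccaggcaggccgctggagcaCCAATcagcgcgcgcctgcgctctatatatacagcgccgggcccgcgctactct
Hist1h1d, chr13:23554882-23555031, plus strand: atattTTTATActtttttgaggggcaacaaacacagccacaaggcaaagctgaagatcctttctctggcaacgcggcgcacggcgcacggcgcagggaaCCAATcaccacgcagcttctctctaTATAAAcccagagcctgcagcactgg
Hist1h4f, chr13:23551669-23551818, minus strand: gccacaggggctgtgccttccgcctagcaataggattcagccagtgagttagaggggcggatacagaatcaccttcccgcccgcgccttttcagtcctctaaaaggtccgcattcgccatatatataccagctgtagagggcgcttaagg
Hist1h4h, chr13:23530894-23531043, plus strand: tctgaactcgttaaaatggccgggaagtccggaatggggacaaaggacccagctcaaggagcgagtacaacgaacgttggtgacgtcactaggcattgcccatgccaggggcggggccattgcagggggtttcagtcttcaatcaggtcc
Hist3h2ba, chr11:58948761-58948910, plus strand: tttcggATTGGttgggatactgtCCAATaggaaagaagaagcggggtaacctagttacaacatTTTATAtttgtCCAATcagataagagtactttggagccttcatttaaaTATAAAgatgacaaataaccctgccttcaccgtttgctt

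The values are deposited peaks with a score, 10 times the authors' -log10 p for a library against its control, which ranks peaks within a list only. The list of Ring1b in tamoxifen-treated KAP1 fl/fl cells, called the knockout list here, held 8928 peaks whose medians were 58.9 for the score and 158 bp for the width. Its control was Ring1b in tamoxifen-treated Ring1b fl/fl cells, a different line that also had tamoxifen during the further 48 h. The deletion, the line and the length of treatment therefore cannot be told apart there. Ring1b was not mapped in vehicle KAP1 fl/fl cells, so the knockout list cannot show a gain or a loss. The vehicle KAP1 list held 82775 peaks with medians of 96.2 and 512 bp, and the vehicle Ring1b list 13516 peaks with medians of 116 and 587 bp. Each vehicle list was called against tamoxifen-treated cells of its own line, so KAP1 and Ring1b at a shared promoter were mapped in different lines. The sources used here give no read depth, so it is unknown, and no value has a replicate error. Intervals on shares are exact (Clopper-Pearson, 95%) and cover counting error only, while neighbouring genes often share a peak. Peak lists hold no expression, so the labelled cell type could not be checked. KAP1 was at promoters of 7 of 7 stem cell markers and 4 of 7 feeder fibroblast markers, beside 58.3% of all coding genes. Ring1b was at 4 and 5 of them, beside 28.6%.

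KAP1 lay at nearly all replication-dependent histone promoters, while Ring1b lay at few. A promoter is a deposited region reaching 1 kb to each side of a transcript start. KAP1 was found at promoters of 63 of the 67 histone genes, or 94.0% (85.4% to 98.3%), beside 58.3% of all coding genes. Ring1b was found at 11 of 67, or 16.4% (8.49% to 27.5%), beside 28.6% of all coding genes. The deposited classes put 56 histone genes (83.6%) in the KAP1 only class, which held 34.1% of all coding genes, and 9 (13.4%) in the class shared with Ring1b, which held 24.7%. The Ring1b only class held 2 histone genes (2.99%), Hist1h1t and Hist4h4, beside 3.99% of all coding genes. Hist2h2aa1 and Hist2h2aa2 stood in the shared class and in the KAP1 only class, and Hist1h1d and Hist1h4h stood in none. With only peaks at or above the median score of their list, 39 histone genes (58.2%) had KAP1, beside 43.7% of all coding genes, and 4 (5.97%) had Ring1b, beside 18.8%.

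The genes are short and crowded, and many of them were deposited under a neighbour's name. The 67 genes had 37 promoter regions, of which 21 merged the starts of 2 or more histone genes and 16 held 1, and the widest region spanned 4510 bp. A merged region prints a single symbol, and 29 of the genes were reached only through the accessions listed under another gene. Going by the printed symbol alone, 30 of 67 histone genes are in the KAP1 only class. In the deposited whole-gene tables, 36 histone genes (53.7%) were KAP1 only beside 30.5% of all coding genes, 6 were shared beside 30.6%, and 2 were Ring1b only beside 2.05%. The other 23 were in no whole-gene class, although 21 of them had a promoter class and 14 had a KAP1 peak over the gene. Of these 23, 13 lay inside a span that the whole-gene tables list under another accession. The family was therefore also read from each gene's own start, which the reference places for 62 of the 67 genes. Hist2h2be, Hist2h4, Hist1h3f, Hist1h2bc and Hist1h3a had no placed start.

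Within 1 kb of their own starts, 58 of 62 histone genes had a KAP1 peak (93.5%), beside 59.9% of all coding genes with a placed start. Ring1b was within 1 kb of 9 (14.5%), beside 28.5%. The class differed from the deposited one for 3 of the 62. Hist1h1e was deposited as shared in a merged region of 3464 bp that joins its start to that of Hist1h2be. KAP1 with a score of 111 lay at Hist1h1e and Ring1b with a score of 61.8 at Hist1h2be. Hist1h2be itself also has KAP1, at 103, by another annotated start 23585970 on chromosome 13, and its long annotated span holds a KAP1 peak of 462 away from either start. Within 1 kb of their own starts Hist2h2aa1 had KAP1 only, and Hist2h2aa2 had both proteins. The Ring1b peak near Hist2h2aa2 had its summit in Hist2h3c2, 1365 bases downstream of the Hist2h2aa2 start. Short genes were then set beside short genes. Of the histone genes, 61 were 1 kb or shorter, and 50 of these (82.0%) had a KAP1 peak over the gene itself. Of the other coding genes of that length, 53 of 1311 (4.04%) had one. Even within 1 kb of their starts, 50 of 1115 of these other genes (4.48%) had KAP1, beside 59.9% of all coding genes. They are thus poor in KAP1 as a set, and what sets them apart was not tested.

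**Figure D1:**
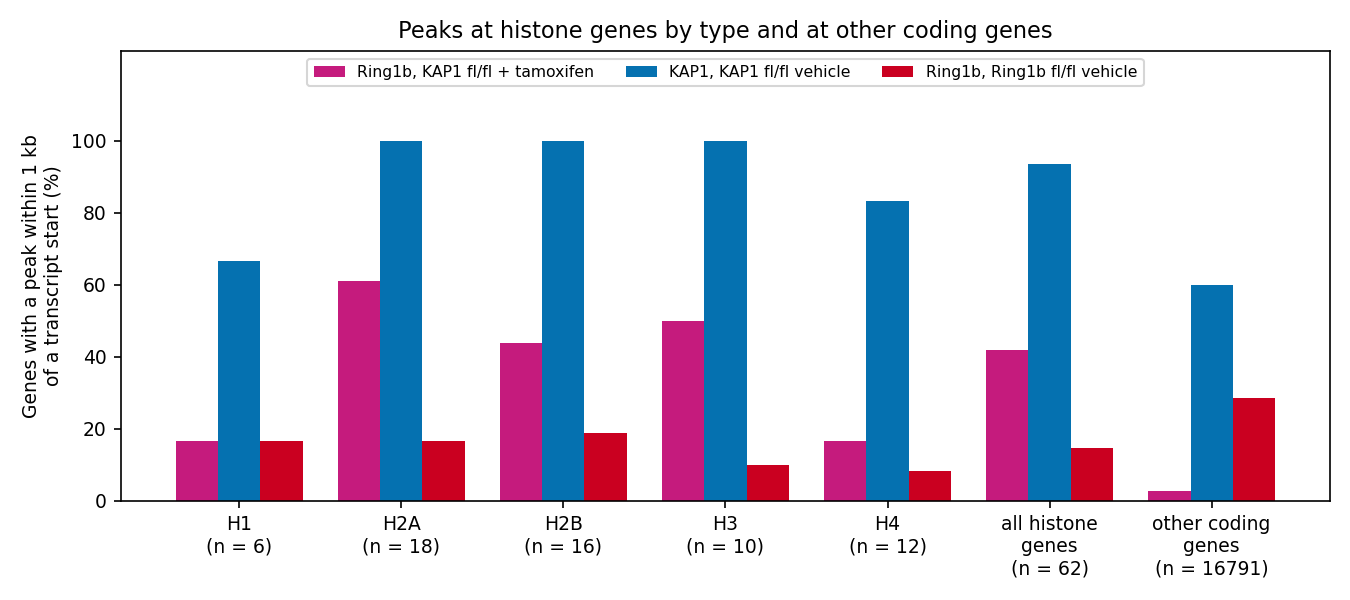
Share of genes with a peak within 1 kb of a transcript start (percent, y axis) for each histone type, all histone genes and other coding genes; bars are Ring1b in tamoxifen-treated KAP1 fl/fl cells, KAP1 in vehicle cells and Ring1b in vehicle cells, 1 library each, with no error bar. KAP1 stood at every placed H2A, H2B and H3 start, and the knockout list reached 41.9% of histone genes and 2.65% of other coding genes.

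The histone types differed in how complete the KAP1 occupancy of their promoter regions was. All 18 H2A, all 18 H2B and all 12 H3 genes had KAP1 at a promoter, as did 11 of 13 H4 genes and 4 of 6 H1 genes. A KAP1 peak overlapped the gene itself for 16 of 18 H2A, 11 of 12 H3 and 13 of 18 H2B genes. For H4 and H1 genes the counts were 11 of 13 and 4 of 6, so the order of types depends on the window. The genes without KAP1 at a promoter were the linker histone genes Hist1h1d and Hist1h1t and the H4 genes Hist1h4h and Hist4h4. All 67 genes had a KAP1 peak within 5 kb, beside 75.5% of all coding genes. Each gene's score is that of the strongest KAP1 peak within 1 kb of its start. Among H1 genes it was highest at Hist1h1c, with 475, and lowest at Hist1h1b, with 63.5. Among H2A genes it ran from 51.3 at Hist1h2ah to 396 at Hist2h2aa2, and among H2B genes from 51.3 at Hist1h2bk to 198 at Hist1h2bl. H3 genes ran from 58.0 at Hist2h3b to 396 at Hist2h3c2, and H4 genes from 56.1 at Hist1h4c to 182 at Hist1h4n. The medians of the 5 types were 127 for H1, 99.8 for H2A, 100 for H2B, 100 for H3 and 99.7 for H4. Neighbours of different types often share a peak, so these medians are not independent. The 198 at Hist1h2bl, the 396 at Hist2h3c2 and the 182 at Hist1h4n belong to peaks with summits in H2A neighbours. These neighbours are Hist1h2ai, Hist2h2aa2 and Hist1h2ap.

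The KAP1 peaks were common in number but moderate in score. The promoter regions of the family held 53 distinct KAP1 peaks, with scores from 51.3 to 475 and a median of 84.6, beside 96.2 for the list. Of the 53 peaks, 24 were above the list's median score. They were wide for the list: 45 of 53 exceeded its median width, and their own median was 629 bp. For the strongest peak within 1 kb of a start, the median score was 101 over histone genes and 148 over all coding genes that had one. The peak at Hist1h1c was the strongest, 1366 bp wide with a score of 475, and 1.25% of the KAP1 list scored higher. The next were a peak of 396 over Hist2h2aa2 and Hist2h3c2 and a peak of 368 over Hist2h2aa1 and Hist2h3c1, which 2.42% and 3.15% of the list exceeded.

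**Figure D2:**
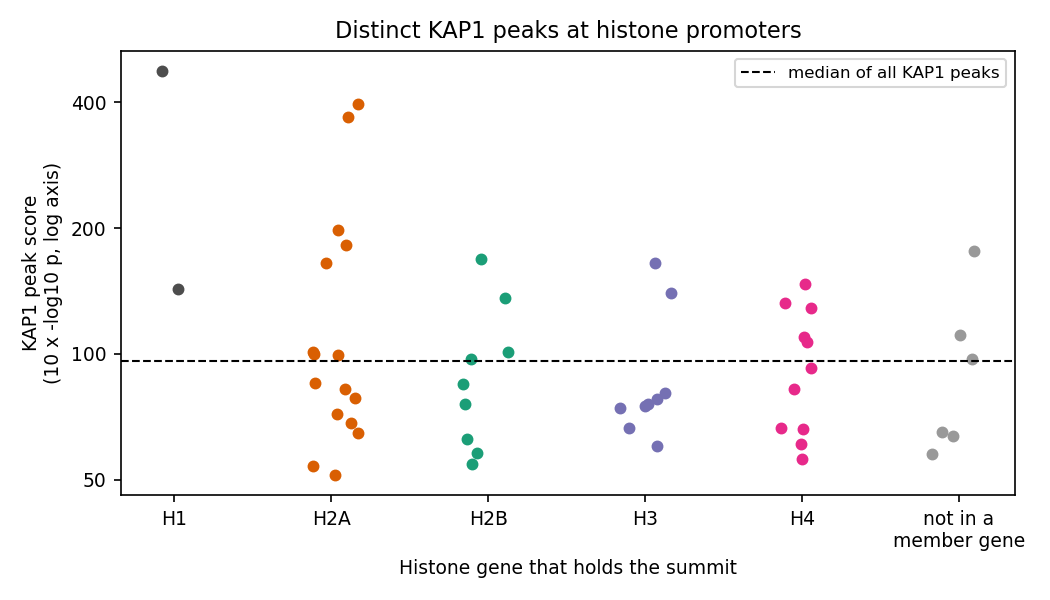
Score of each of the 53 distinct KAP1 peaks at histone promoters (10 times -log10 p, log axis) by the type of the histone gene that holds the summit; each point is a peak of the single vehicle library, and the dashed line is the median of all KAP1 peaks. The points run from 51.3 to 475 around the list median of 96.2, and the 3 highest stand at 368, 396 and 475.

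Many peaks served more than 1 gene. Of the 53 KAP1 peaks, 18 lay within 1 kb of 2 or more histone starts and 4 of these within 1 kb of 3. The peak of 198 lay near Hist1h2ai, Hist1h2bl and Hist1h3h. The peak of 182 lay near Hist1h2ap, Hist1h2br and Hist1h4n, that of 101 near Hist1h2ad, Hist1h2bf and Hist1h3d, and that of 82.5 near Hist1h2ao, Hist1h2bq and Hist1h4m. Each of the 4 thus joined an H2A gene, an H2B gene and an H3 or H4 gene. Divergent H2A and H2B pairs with a joint peak were Hist1h2ak and Hist1h2bn (100), Hist1h2an and Hist1h2bp (53.8), Hist1h2ah and Hist1h2bk (51.3) and Hist1h2ae and Hist1h2bg (68.2). Hist1h2ag and Hist1h2bj shared peaks of 78.4 and 76.0, Hist1h2ao and Hist1h2bq a further peak of 169, and the testis histone pair Hist1h2aa and Hist1h2ba a peak of 101. An H3 gene shared a peak with Hist1h2ab (Hist1h3b, 99.6), with Hist1h2bb (Hist1h3c, 65.2) and with Hist2h2bb (Hist2h3b, 58.0). The H2A genes Hist2h2ab and Hist2h2ac shared a peak of 71.9.

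Within a shared promoter, the peak tops did not sit between the genes but mostly inside them. The summit lay inside a histone gene for 47 of the 53 KAP1 peaks, inside a histone pseudogene for 2 and in neither for 4. Such a summit was found in 16 of 18 H2A genes, 11 of 13 H4 genes, 9 of 12 H3 genes, 9 of 18 H2B genes and 2 of 6 H1 genes. Where a divergent pair shared a single summit inside a gene, as at Hist1h2ah and Hist1h2bk, it was counted for the gene that holds it. Measured from the start, the summits in H2A genes lay 109 to 413 bases downstream with a median of 334. In H4 genes they lay 56 to 266 bases downstream, with a median of 223.5, and in the 7 H2B genes with a placed start 100 to 338, with a median of 232. In H3 genes they lay nearer the start, at 70 to 222 bases with a median of 101, and in the H1 genes Hist1h1a and Hist1h1c at 25 and 65 bases. For the strongest peak near each start, the summit was downstream of the start at 36 of 58 histone genes (62.1%, 48.4% to 74.5%), with a median position of 105 bases. Over all coding genes it was downstream at 48.4%, with a median position of -6 bases, where the minus sign means upstream.

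**Figure D3:**
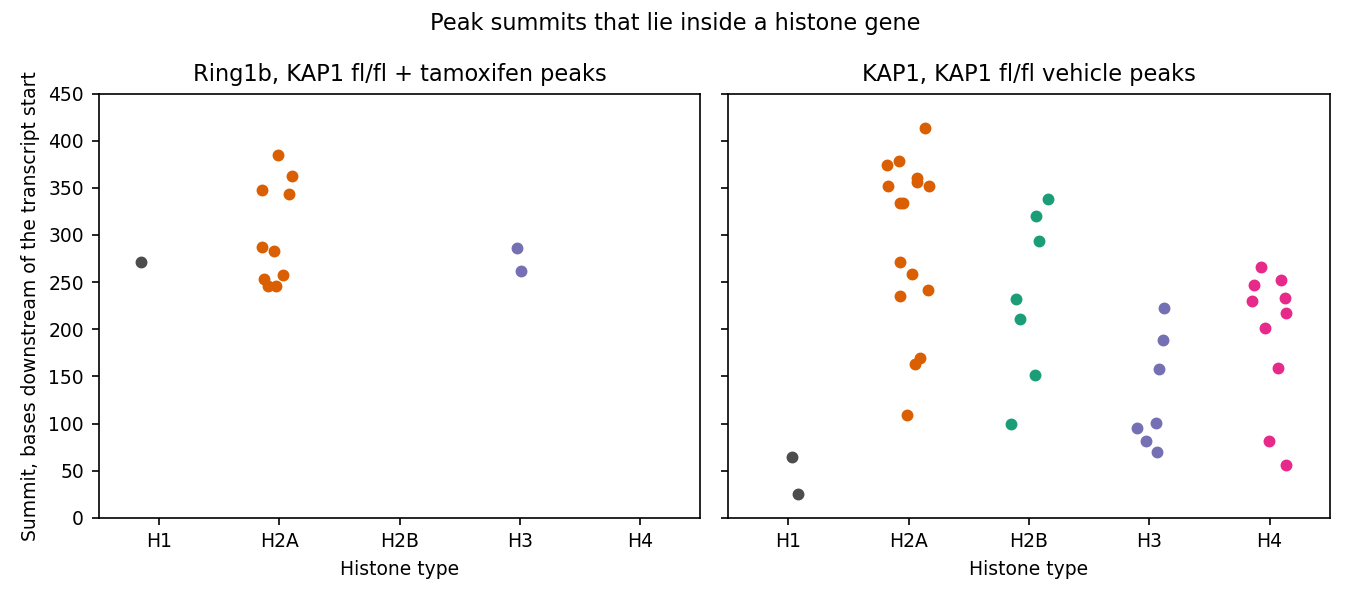
Distance of peak summits inside histone genes from the transcript start (bases downstream, y axis) by histone type, with Ring1b in tamoxifen-treated KAP1 fl/fl cells on the left and KAP1 in vehicle cells on the right; each point is a peak of a single library. The knockout-list summits in H2A genes lie between 246 and 385 bases, inside the KAP1 range of 109 to 413, and none lies in an H2B or H4 gene.

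Ring1b in vehicle cells was found at 8 distinct peaks in histone promoter regions, with scores from 56.4 to 1735 and a median of 94.2, beside a list median of 116. Of these, 3 exceeded the list median, and 2 of those 3 were at the Hist3 locus. Hist3h2ba, an H2B gene, had a Ring1b peak of 1735 that was 2602 bp wide, which 10.2% of the list exceeded, and a KAP1 peak of 136. Hist3h2a, an H2A gene, had a Ring1b peak of 905 and a KAP1 peak of 165. The Ring1b summit there lay in the neighbouring pseudogene H2bu1-ps, and the KAP1 summit inside Hist3h2a itself. Both genes thus had both proteins within 1 kb of their starts, though the Ring1b peak at Hist3h2a ended before the gene. KAP1 and Ring1b were mapped in different lines. Neither gene had a peak of the knockout list.

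The 3 histone genes known for expression in the testis all carried Ring1b. Hist1h2aa (H2A) and Hist1h2ba (H2B) shared Ring1b peaks of 192 and 95.9, which 37.5% and 57.3% of the list exceeded, together with the KAP1 peak of 101. Hist1h1t (H1) had a Ring1b peak of 56.4, the lowest of the 8, without KAP1 and with the summit 453 bases downstream of its start; 88.8% of the list exceeded it. The other Ring1b peaks scored 92.5 at Hist2h3c2, 61.8 at Hist1h2be and 57.7 at Hist4h4, which 58.6%, 81.9% and 87.1% of the list exceeded. The peak of 92.5 had its summit in Hist2h3c2 and was also counted for Hist2h2aa2, whose start lay within 1 kb of it. The summit at Hist4h4 lay 853 bases downstream of the start, beyond the end of the gene. Of the 23 genes of the first Hist1 cluster, 0 had Ring1b at a promoter, which allows a share of up to 13.0%. A Ring1b peak of 66.7 lay just past the end of Hist1h4m, outside its promoter region.

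The histone genes were next read by cluster. Genes on a chromosome were linked at gaps of up to 500 kb, which split Hist1 into a first cluster of 23 genes over 328 kb and a second of 31 genes over 404 kb. KAP1 lay at promoters of 23 of 23 genes in the first Hist1 cluster, 28 of 31 in the second, 10 of 10 in the Hist2 cluster and 2 of 2 at the Hist3 locus, and not at Hist4h4. KAP1 peaks numbered 149 per Mb in the first Hist1 cluster, 86.7 per Mb in the second and 199 per Mb in the Hist2 cluster, beside 30.9 per Mb for the whole list. In the same order, Ring1b peaks of vehicle cells numbered 27.4, 14.9 and 19.9 per Mb, beside 5.04. Knockout-list peaks numbered 24.4, 19.8 and 39.8 per Mb, beside 3.33. The Hist2 values rest on 1 Ring1b peak and 2 knockout-list peaks. A raised peak density was thus not particular to KAP1. In the first Hist1 cluster, 30 of 49 KAP1 peaks were more than 1 kb from any histone gene, and in the second 6 of 35 were. The clusters also held 9 other coding genes, of which 3 had KAP1 at a promoter (Zfp184, Pom121l2 and Hfe) and 2 had Ring1b (Pom121l2 and Hfe). Prss16, Trim38 and the transporter genes Slc17a1, Slc17a2, Slc17a3 and Slc17a4 had no promoter class.

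**Figure D4:**
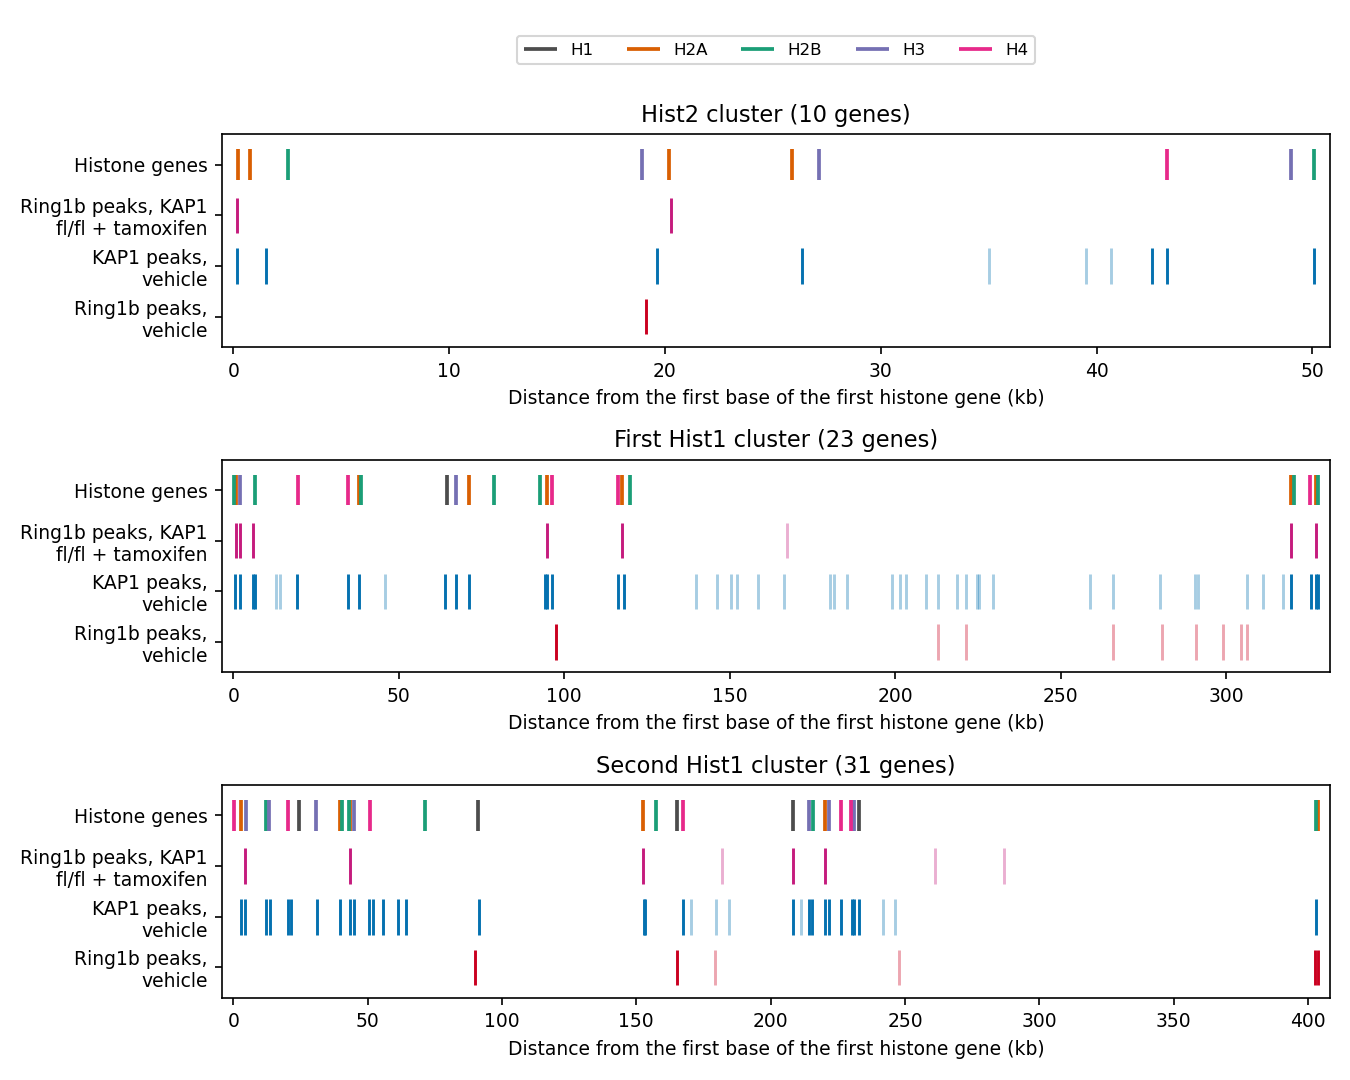
Positions of the histone genes (top track of each panel, coloured by type) and of the peaks of Ring1b in tamoxifen-treated KAP1 fl/fl cells, KAP1 in vehicle cells and Ring1b in vehicle cells, 1 library each, in kb from the first histone gene of the Hist2 cluster and both Hist1 clusters. Genes and peaks are drawn at their midpoints; full colour marks peaks within 1 kb of a histone gene and pale colour the others: the first Hist1 cluster holds 30 pale KAP1 peaks and 8 pale Ring1b peaks, and the knockout-list peaks sit mostly at histone genes.

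Ring1b in tamoxifen-treated KAP1 fl/fl cells had peaks at many histone genes. A knockout-list peak lay within 1 kb of the start of 26 of 62 histone genes, or 41.9% (29.5% to 55.2%), beside 2.79% of all coding genes. Counting the gene or its deposited region, the numbers were 31 of 67 (46.3%, 34.0% to 58.9%) beside 14.8%, and within 5 kb they were 36 of 67 (53.7%) beside 18.1%. Starts are rare places in this list, since 560 of its 8928 peaks (6.27%) lay within 1 kb of any start in the reference. Other coding genes of 1 kb or shorter, a set also poor in KAP1, had such a peak at 8 of 1115 starts (0.717%). By type, it was found at 11 of 18 H2A genes (61.1%), 5 of 10 H3 genes (50.0%), 7 of 16 H2B genes (43.8%), 2 of 12 H4 genes (16.7%) and 1 of 6 H1 genes (16.7%). By cluster, it was found at 14 of 23 genes of the first Hist1 cluster (60.9%), 8 of 28 of the second (28.6%) and 4 of 8 of the Hist2 cluster (50.0%).

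The peaks within 1 kb of a start, and those over a gene or its region, came down to 14 distinct peaks, and the H2A genes held most of their summits. The summit lay inside an H2A gene for 10 of the 14, in an H3 gene for 2, in the H1 gene Hist1h1c for 1 and in the H2A pseudogene H2ac14 for 1. No summit lay in any of the 18 H2B genes, which allows a share of up to 16.7%, or of the 13 H4 genes, which allows 23.1%. H2B and H4 genes were thus counted through the peak of an H2A neighbour or, for Hist1h2bm, of the pseudogene. The H3 genes Hist2h3c2, Hist1h3d and Hist1h3b and the H2A gene Hist2h2ac were also counted only through an H2A neighbour. Of the 14 peaks, 9 lay within 1 kb of 2 or more histone genes and 4 of these within 1 kb of 3.

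The scores of the H2A summits were 88.2 at Hist1h2ai, 87.8 at Hist1h2ab, 86.6 at Hist1h2ad, 72.3 at Hist1h2ah, 69.9 at Hist1h2ao and 68.9 at Hist1h2ap. They were 67.1 at Hist1h2ac, 63.3 at Hist2h2aa2, 60.6 at Hist1h2ag and 56.5 at Hist2h2ab. The H3 genes Hist1h3g and Hist1h3h had 94.9 and 55.7, Hist1h1c had 63.0 and H2ac14 had 71.5. Hist1h3g thus held the strongest, which 5.98% of the list exceeded. Of the 14 peaks, 12 were above the list's median score of 58.9. All 14 were wider than the list's median of 158 bp, at 210 to 808 bp with a median of 416.5 bp.

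Each of the 14 knockout-list peaks lay on a KAP1 peak of vehicle cells. All 14 overlapped one, beside 1211 of the 8928 peaks of the list (13.6%), and 0 of the 14 overlapped a Ring1b peak of vehicle cells, which allows a share of up to 21.4%. The 14 were picked at histone promoters, and 94.0% of histone genes had KAP1 there, while 6.27% of the list lay within 1 kb of a start. The shares of KAP1 overlap are therefore not like for like. In the whole list, 44 of 8928 peaks (0.493%) overlapped a Ring1b peak. The summits of the knockout-list peak and the KAP1 peak lay 4 to 206 bases apart, with a median of 21. They lay 4 bases apart at Hist2h2ab, 6 at Hist1h2ag and 9 at Hist1h2ad, and 206 apart at Hist1h1c, whose KAP1 peak is 1366 bp wide. From the start, the summits in H2A genes lay 246 to 385 bases downstream with a median of 285, in Hist1h3h and Hist1h3g 262 to 286, and in Hist1h1c 271.

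The order of the knockout-list scores at these peaks differed from that of the KAP1 scores. Hist1h2ah had 72.3 in the knockout list beside 51.3 for KAP1, the lowest KAP1 score of the family. Hist1h1c had 63.0 beside 475, and Hist2h2aa2 had 63.3 beside 396. Hist1h2ai had 88.2 beside 198. Scores of different lists are not on a common scale, so only the order within each list can be read. Beside Hist2h2aa2 and Hist2h3c2 lie Hist2h2aa1 and Hist2h3c1 in the opposite orientation. These had KAP1 at 368, and neither a knockout-list peak nor Ring1b was called there, while both deposited regions list the accessions of both H2A genes. The promoters of Hist1h2bq and Hist1h2br were identical over 300 of 300 bases, and those of Hist1h4m and Hist1h4n over 298 of 300. The Hist2 copies did not reach the 95% limit used, for windows placed by the annotated starts. Their G and C contents were alike, at 64.7% and 63.7% for Hist2h2aa1 and Hist2h2aa2 and 72.7% for both Hist2h3c1 and Hist2h3c2. Gene bodies were not compared, so whether read placement bears on the Hist2 contrast was not tested. Reads from near-identical copies can be placed at either, and the sources used here do not say how the authors placed them. Near the Hist1 pairs the knockout list had 69.9 at Hist1h2ao and 68.9 at Hist1h2ap.

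The promoters of the types differed in their motifs, which were searched on both strands from 250 bases before the start to 50 bases after it. The CCAAT box was in all 6 H1, 18 H2A, 16 H2B and 10 H3 promoters with a placed start and in 3 of 12 H4 promoters. In all, 53 of 62 histone genes (85.5%) had it, beside 37.4% of 32851 RefSeq promoters. The TATA box was in 35 of 62 (56.5%) beside 13.6%: in 4 of 6 H1, 11 of 18 H2A, 8 of 16 H2B, 4 of 10 H3 and 8 of 12 H4 genes. The octamer, known as the Oct1 site of H2B promoters, was in 7 of 16 H2B and 7 of 18 H2A genes and in no other type, or 14 of 62 (22.6%) beside 1.74%. No match of a motif overlapped one of another. A match is a description of the letters, not a bound site. In the divergent pair Hist1h2ah and Hist1h2bk the same octamer lies before both starts.

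**Figure D5:**
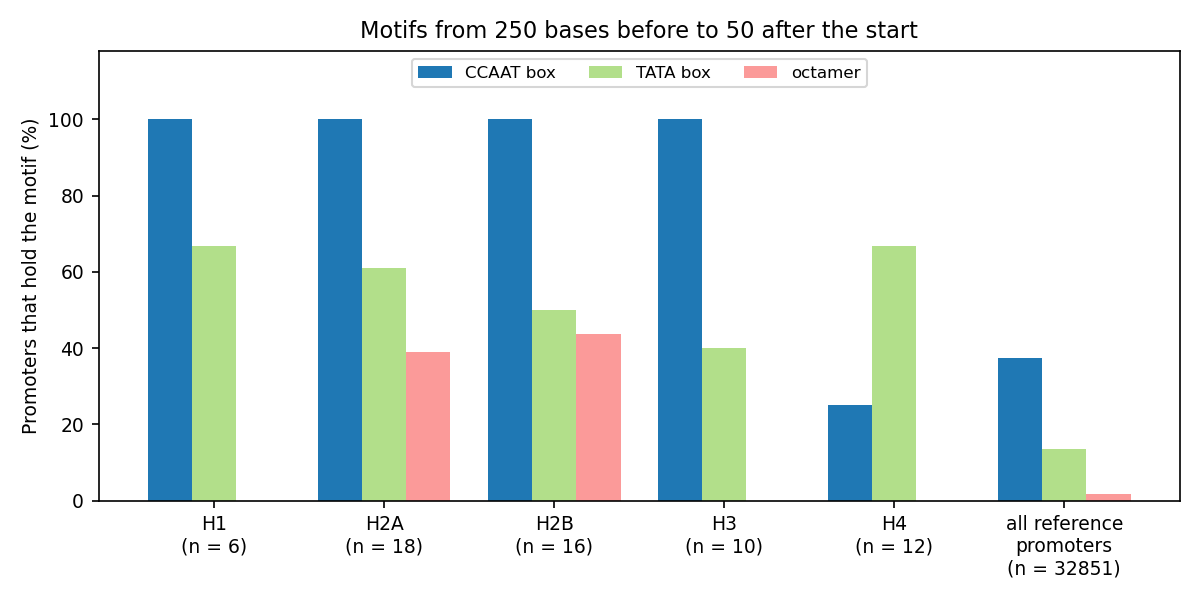
Share of promoters that hold the CCAAT box, the TATA box or the octamer (percent, y axis) from 250 bases before to 50 after the transcript start, for each histone type and for all 32851 reference promoters. The CCAAT box is in every H1, H2A, H2B and H3 promoter and in 25.0% of H4 promoters, and among histone promoters the octamer was matched in H2A and H2B.

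The promoter classes are uneven in size, and their motifs are given as counts. Of 49 KAP1 only genes with a placed start, 42 had the CCAAT box (85.7%), 29 the TATA box and 10 the octamer. Of the 11 with Ring1b in their class, 10 had the CCAAT box (90.9%), 5 the TATA box and 4 the octamer. Neither Hist1h1d nor Hist1h4h had the octamer, and Hist1h1d had the other boxes. Histone promoters were poorer in G and C than others, with median contents of 51.1% for H1, 44.0% for H2A, 44.3% for H2B, 41.4% for H3 and 48.0% for H4, beside 52.7% for all. CpG dinucleotides were more frequent, with medians per promoter from 8.5 in H3 to 13.5 in H1, beside 7.0 for all.

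Genes that act with the histone genes were described for comparison. Of 13 replication-independent histone genes, 11 had KAP1 at a promoter and 4 had Ring1b, beside 58.3% and 28.6% of all coding genes. The highest KAP1 scores in the deposited tables were 438 at H3f3a, which encodes the variant H3.3, and 311 at H2ax, whose protein is phosphorylated at DNA breaks. Ring1b was at Macroh2a2 (598), H2az1 (78), H1f0 (67) and H3f3a (62). A knockout-list peak lay within 1 kb of the start of 1 of 12, the H2A gene H2aj, at 68.3, beside 2.79% of all coding genes. The span of H2aj begins within 5 kb of Hist4h4, which was itself counted above with a knockout-list peak within 5 kb. Of 21 factors of histone gene transcription and mRNA end formation, 20 had KAP1 and 3 had Ring1b. The highest KAP1 scores were 463 at Pou2f1, which encodes the octamer-binding protein Oct1, and 405 at Zfp473, a zinc finger protein of the histone pre-mRNA processing complex. Ring1b was at Pou2f1 (258), Ccne2 (91) and Cdc25a (57). A knockout-list peak was within 1 kb of 1 of 17 starts, Pou2f1, at 52.5. Of 21 histone chaperone genes, 18 had KAP1 and 4 had Ring1b. Frequent KAP1 at promoters was thus not particular to the replication-dependent histone genes. Hjurp, the chaperone of CENP-A, had 416 for KAP1 and 408 for Ring1b, and Tonsl had 337 for KAP1. Asf1a (91, without KAP1), Anp32e (61) and Nap1l1 (61) also had Ring1b. A knockout-list peak was within 1 kb of 0 of 18 chaperone starts, which allows a share of up to 16.7%. Counting the gene or its deposited region, a knockout-list peak was found at 2 of the 13 replication-independent histone genes, 3 of the 21 factors and 3 of the 21 chaperone genes, beside 14.8% of all coding genes.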

How the data were processed

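Per the submitters' processing notes, MACS 1.4.2, Bowtie2, bedtools 2.16.2 and CASAVA 1.8.2 were used, with mm10 (GRCm38) as the build. The authors deposited 3 peak lists and 6 gene and promoter tables with a score, 10 times -log10 p of a library against its control, per the file headers. Chromatin was fixed for 10 min and sheared to about 200 bp, per the labels' protocols.

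Histone genes were matched to the deposited regions by every RefSeq accession listed, and gene positions, starts and promoter sequences came from RefSeq (GRCm38.p6). Overlap meant at least 1 bp, and the start window was 1 kb on each side. Overlap counting was tested on simulated data. Python 3.11.15, pandas 2.3.3 and SciPy 1.17.1 were used. With 1 library per group no test was made, and counts stand beside the share over all coding genes. Limits for a count of 0 used 3 counts.

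Genes, lists and the rule for naming were chosen with earlier results of these data known. Named were the highest and lowest KAP1 gene of each type, every gene with Ring1b, with a knockout-list peak or with neither protein, shared peaks, and, from the comparison lists, the 2 highest KAP1 genes and all with Ring1b. Alternatives were stricter scores, summits, other windows, other tables, printed symbols, other gene sets and a shorter motif window.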

Additional observations from a re-analysis of the deposited data

How the results depend on the processing

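Of 51 alternative values for 15 results, 35 stayed within 1.5 times the reported one and 16 moved by more. With only peaks at or above the median score of their list, KAP1 promoters numbered 39 in place of 63, Ring1b promoters 4 in place of 11, shared genes 4 in place of 9, KAP1 only genes 35 in place of 56 and Ring1b only genes 0 in place of 2. Distinct peaks were then 24 in place of 53 for KAP1 and 3 in place of 8 for Ring1b. Going by the printed symbol alone, a choice made after seeing the data, the counts were 34 for KAP1, 6 for Ring1b, 4 shared and 30 KAP1 only. The whole-gene tables gave 36 KAP1 only genes. Without the testis genes Hist1h1t, Hist1h2aa and Hist1h2ba, 1 gene was Ring1b only. Counting a knockout-list peak only where its summit lay inside the gene, also chosen after seeing the data, gave 13 genes in place of 31. With clusters linked at gaps of up to 100 kb, the other coding genes inside them numbered 1 with KAP1 in place of 3 and 1 with Ring1b in place of 2. Own starts, and knockout-list peaks at or above the median score, were further alternatives chosen after seeing the data, and gave 26 and 28 genes with a knockout-list peak. No paired analysis was possible because each group had 1 library. The sources used here give no depth, so the size of a peak that could have been missed is unknown.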

Other observations

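The first Hist1 cluster holds a long stretch without histone genes that is rich in tRNA genes, and many of its peaks lay there. The cluster held 31 tRNA genes and 30 KAP1 peaks more than 1 kb from any histone gene, with scores from 52.8 to 292 and a median of 94.8. Of these, 14 lay within 500 bp of a tRNA gene and 12 overlapped one. Of the 8 Ring1b peaks away from histone genes, 4 lay within 500 bp of a tRNA gene and 2 overlapped one. The 1 knockout-list peak away from histone genes in this cluster also overlapped a tRNA gene. No share of the whole lists near tRNA genes is given here, so these counts have no background. The strongest Ring1b peak of the stretch scored 3100, was 4217 bp wide and lay over the tRNA genes n-TSgct8 and n-TQctg1. It was followed by a peak of 2491 in Prss16, which encodes a serine protease of the thymus, and a peak of 948 at Pom121l2. These scores exceeded the highest at any histone gene of the Hist1 locus, which was 192 at Hist1h2ba and Hist1h2aa. These genes were looked at after their values were seen.

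Histone pseudogenes carried peaks too. H2ac14 (also named Hist1h2aj) had a knockout-list peak of 71.5 on a KAP1 peak of 176, beside the H2B gene Hist1h2bm. H2af-ps2 (Hist1h2al), outside the clusters on chromosome 13, had a KAP1 peak of 102 and a Ring1b peak of 110. H1f11-ps on chromosome 19 had a KAP1 peak of 202. In the Hist1 clusters, 4 knockout-list peaks lay more than 1 kb from any histone gene, at scores from 53.4 to 56.2 and widths from 144 to 180 bp. Those at histone genes of the same list ran from 55.7 to 94.9 and from 210 to 808 bp.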
